A study of Homo sapiens with 24 samples.

Results

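The genes described here are 7 factors of nonsense-mediated mRNA decay, UPF1, UPF2, UPF3A, UPF3B, SMG1, SMG5 and SMG6, taken by symbol from the 23354 genes of the deposited count table. Their RNA was measured in MV4-11 and KG-1a, established cell lines from human acute myeloid leukemia (AML). Cultures were left untreated or received 1 µM of 8-chloro-adenosine (8CA) or of 8-amino-adenosine (8AA), and were sampled at 8 h and at 24 h. This gave 12 groups with 2 libraries each, A and B. The 2 drugs are adenosine analogs that carry a chlorine atom (8CA) or an amino group (8AA) at the same position of the base. The hours of the untreated cultures come from their titles alone, and protein was not measured.

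Nonsense-mediated decay removes mRNAs whose translation ends too early, and it also sets the level of many normal transcripts. UPF1 is the RNA helicase at its centre. UPF2 links UPF1 to UPF3A or UPF3B, the paralogs that bind the exon junction complex left behind by splicing. SMG1 is the kinase that phosphorylates UPF1, SMG5 is an adaptor that binds phosphorylated UPF1, and SMG6 is the endonuclease that cuts the target mRNA. Several mRNAs of the pathway are themselves its targets, which is a known feedback of the pathway and was not examined here.

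Library totals ran from 18633963 to 24520078 counts. All 7 genes passed the filter on low counts in each fit, with between 419 counts (UPF3B, an untreated KG-1a library at 8 h) and 11514 counts (SMG1, a KG-1a library with 8CA at 24 h). The replicates of a group differed by more than sampling noise in each group, with a chi-square per degree of freedom of 1.43 to 12.3, the highest in KG-1a with 8AA at 24 h. FLT3, MEIS1 and LYZ were found in MV4-11 and CD34 in KG-1a, while HOXA9, listed as an MV4-11 marker, was lower in MV4-11 (at most 9.22 CPM, counts scaled to equal library totals) than in KG-1a (at least 22.95 CPM). In KG-1a the myeloid markers CD33 (at most 1.05 CPM) and SPI1 (at most 7.84 CPM) were low. Of the markers of other cell types, EPCAM was at 0 and ALB at no more than 3 counts in any library of either line, whereas CD3E was at 0 in MV4-11 and between 22.5 and 85.6 CPM in KG-1a.

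The starts that the table lists differ from GRCh38 for all 7 genes, and hg19 is the other build named in the submitters' processing notes. In the table UPF1 lies on chromosome 19 (18942744 to 18979039, plus strand), UPF2 on chromosome 10 (11962021 to 12085169, minus), UPF3A on chromosome 13 (115047059 to 115071291, plus) and UPF3B on chromosome X (118967989 to 118986991, minus). SMG1 lies on chromosome 16 (18816175 to 18937726, minus), SMG5 on chromosome 1 (156219015 to 156252620, minus) and SMG6 on chromosome 17 (1963133 to 2207069, minus). The spans listed for SPRY3 and for LOC100132062 and LOC100133331 run over UPF3B and SMG5, and whether reads were shared between them was not tested.

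Promoter windows, from 250 bases before to 50 bases after a transcription start, were matched by symbol in RefSeq (GRCh38.p14) for 7 of the 7 genes. UPF2 and UPF3B are shown because they are the members that rose with 8CA in both lines at both times, and UPF3A because it is the paralog of UPF3B. Capitals mark TCGCGAGA, the core of a palindromic element of CpG-rich promoters, and the E-box CACGTG, each searched on both strands. Both motifs were picked after these windows had been read. The windows are chr10:12043121-12043420 (minus strand) for UPF2, chrX:119852914-119853213 (minus) for UPF3B and chr13:114281351-114281650 (plus) for UPF3A.
UPF2: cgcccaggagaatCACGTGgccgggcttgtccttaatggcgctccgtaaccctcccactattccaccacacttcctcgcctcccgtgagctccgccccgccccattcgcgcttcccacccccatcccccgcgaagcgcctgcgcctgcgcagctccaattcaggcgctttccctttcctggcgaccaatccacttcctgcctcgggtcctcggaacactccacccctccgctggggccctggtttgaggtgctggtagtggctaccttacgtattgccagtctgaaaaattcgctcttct
UPF3B: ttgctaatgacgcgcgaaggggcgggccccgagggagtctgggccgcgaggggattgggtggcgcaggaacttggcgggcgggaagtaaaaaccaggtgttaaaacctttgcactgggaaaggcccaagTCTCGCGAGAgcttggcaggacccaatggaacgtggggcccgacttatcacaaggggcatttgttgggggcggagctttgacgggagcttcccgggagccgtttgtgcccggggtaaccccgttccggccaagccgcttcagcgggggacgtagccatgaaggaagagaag
UPF3A: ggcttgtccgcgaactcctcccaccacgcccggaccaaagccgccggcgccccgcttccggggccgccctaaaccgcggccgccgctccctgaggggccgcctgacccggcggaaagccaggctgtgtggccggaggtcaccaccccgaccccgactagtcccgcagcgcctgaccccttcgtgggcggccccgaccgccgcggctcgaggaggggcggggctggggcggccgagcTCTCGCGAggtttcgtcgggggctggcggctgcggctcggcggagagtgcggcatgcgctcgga
TCGCGAGA was found in the windows of 3 of the 7 genes (UPF3A, UPF3B and SMG5) and in 1.15% of the 35116 RefSeq windows, or 1.37% of the 27305 genes, which like the members can have several windows. In UPF3B 2 sites overlap and form the full palindrome of that element, which is in 0.424% of windows. CACGTG was found in windows of UPF2 and SMG6, in 7.26% of windows and 8.77% of genes, and GGGCGG, the GC box, in windows of all 7 members, in 45% of windows and 48.3% of genes. These are matches of letters and no evidence of binding.

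Without drug, UPF1 had the highest level per length of the 7 genes and SMG6 the lowest, in both lines and at both times. On the RPKM scale (TMM-scaled CPM per kilobase of listed exon length, mean ± SD, n = 2), MV4-11 at 8 h gave 50.3 ± 1.91 for UPF1, 33.4 ± 0.499 for UPF2, 32.3 ± 0.18 for SMG5, 16.8 ± 2.28 for SMG1, 15.0 ± 0.0931 for UPF3A, 12.2 ± 0.933 for UPF3B and 4.86 ± 0.221 for SMG6. SMG1 and UPF3A, neighbours in that order, differed by less than the SD of SMG1. KG-1a at 8 h gave 47.9 ± 2.77 for UPF1, 40.0 ± 2.14 for SMG5, 26.9 ± 1 for SMG1, 18.9 ± 0.627 for UPF3A, 18.7 ± 0.733 for UPF2, 9.66 ± 0.494 for UPF3B and 7.28 ± 0.412 for SMG6. There UPF3A and UPF2 could not be told apart by their spread. UPF2 was thus next to UPF1 in MV4-11 and level with UPF3A in KG-1a.

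Of the 7 genes, 6 differed between the untreated lines at 8 h and 6 at 24 h (edgeR quasi-likelihood test, adjusted p under 0.05), where 82.2% and 82.0% of the 14055 genes tested also differed. UPF2 and UPF3B were higher in MV4-11, and UPF3A, SMG1, SMG5 and SMG6 were higher in KG-1a. UPF2 differed most, by a log2 fold change of 0.84 (SE 0.041) at 8 h and 0.73 (SE 0.041) at 24 h. SMG1 was lower in MV4-11 by a log2 fold change of -0.68 and -0.53, SMG6 by -0.58 and -0.37, SMG5 by -0.31 and -0.45 and UPF3A by -0.34 and -0.50. UPF3B was higher by 0.34 and 0.22. UPF1 differed by 0.07 at 8 h (95% interval -0.05 to 0.19) and 0.01 at 24 h (-0.11 to 0.13) and was not called. Bulk RNA cannot tell fewer cells with a transcript from less of it per cell, here or in any comparison that follows. In all of them levels are scaled within each library, so that rose and fell are relative to the other genes. A change in total RNA per cell would not show. Between 8 h and 24 h without drug, 0 of the 7 genes were called by edgeR in MV4-11 and 0 in KG-1a, where 5.54% and 4.45% of all genes were. At an unadjusted p under 0.05 the count was 0 in each line, and DESeq2 called 0 in each.

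**Figure D1:**
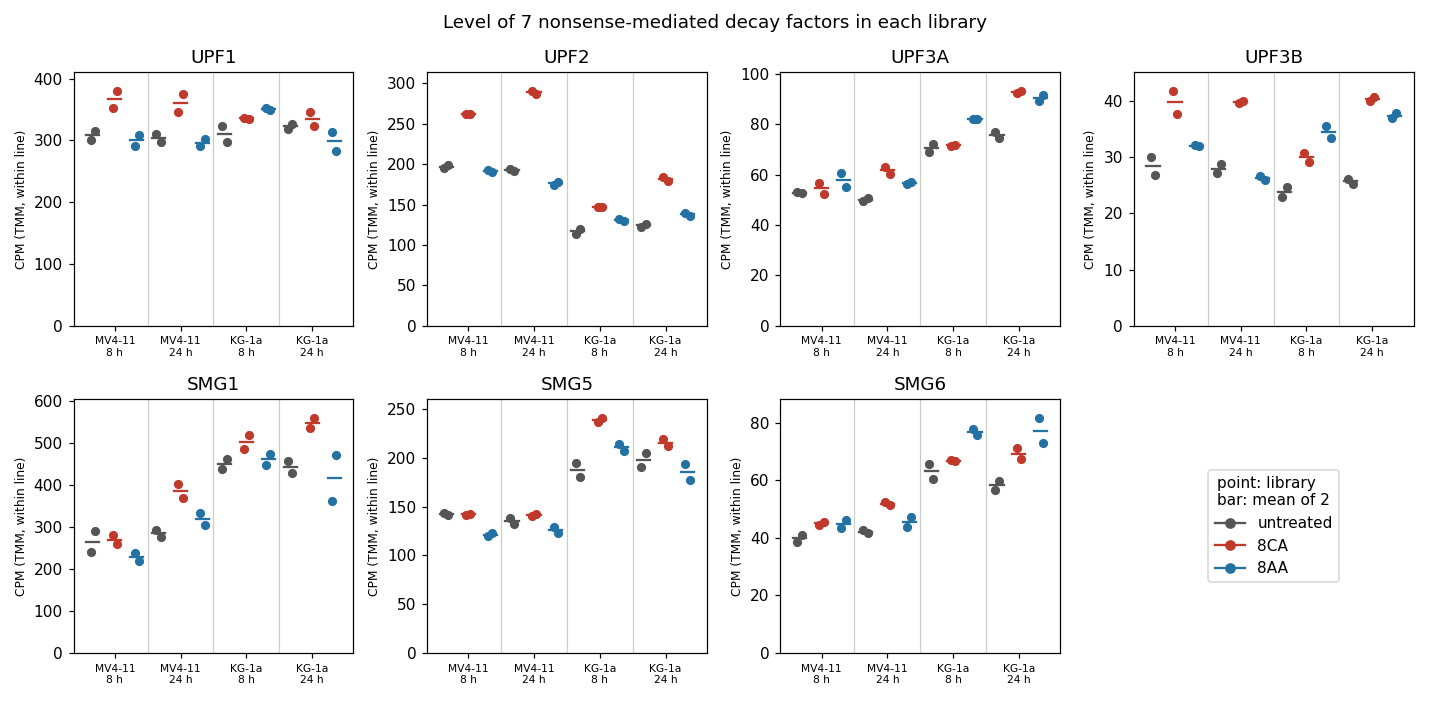
CPM (TMM-scaled within each line, linear axis from 0) of each of the 7 genes in the 24 libraries, grouped by line and time. Points are libraries and bars the mean of 2. UPF2 with 8CA lies above untreated in each block, and SMG1 with 8AA at 24 h in KG-1a has the widest pair, 362 and 472 CPM.

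In MV4-11 the members that passed the test against untreated all rose with 8CA. With 8AA, 1 of the 7 rose and 1 fell at each time, which is near the shares of all genes. In MV4-11, 8CA raised 3 of the 7 at 8 h (UPF1, UPF2 and UPF3B), while 4.58% of the 12800 genes tested rose and 5.77% fell. At 24 h, 8CA raised 6 of the 7, all but SMG5, against 21.2% of genes that rose and 22.7% that fell. With 8AA, MV4-11 showed SMG6 higher and SMG5 lower at 8 h (13.6% of genes rose, 15.6% fell), and UPF3A higher and UPF2 lower at 24 h (13.9% rose, 15.3% fell). The median log2 fold change of the 7 was 0.18 at 8 h and 0.30 at 24 h with 8CA, and -0.04 and -0.04 with 8AA, beside 0.01, 0.00, 0.01 and 0.00 over all genes tested. Leaving out single libraries kept the 8CA count at 24 h at 6, and moved the 8AA counts. Without untreated replicate B, the count at 8 h fell from 2 to 1. At 24 h the 8AA count was 0 without untreated replicate A, untreated replicate B or 8AA replicate A, and 1 without 8AA replicate B.

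In KG-1a, 8CA raised 3 of the 7 at 8 h (UPF2, UPF3B and SMG5), where 0.700% of the 12711 genes tested rose and 0.181% fell. With 8AA at 8 h, 6 of the 7 rose, all but SMG1, against 16.7% of genes that rose and 18.0% that fell. At 24 h, 8CA raised 5 (UPF2, UPF3A, UPF3B, SMG1 and SMG6; 23.4% of genes rose and 24.0% fell) and 8AA raised 4 (UPF2, UPF3A, UPF3B and SMG6; 25.4% rose and 26.6% fell). No member fell in KG-1a by this test. The median log2 fold change of the 7 was 0.16 at 8 h and 0.29 at 24 h for 8CA, and 0.18 at 8 h and 0.15 at 24 h for 8AA, beside 0.00 and 0.01, and 0.01 and 0.01, over all genes tested. The 8CA count at 8 h was 1, UPF2, without untreated replicate B, 8CA replicate A or 8CA replicate B, and the 8AA count at 8 h was 3 without untreated replicate B or 8AA replicate A. The 2 libraries with 8AA at 24 h are the pair that differed most, and the count there was 6 (4 higher, 2 lower) without replicate A and 5 (4 higher, 1 lower) without replicate B. In the same 2 libraries CD3E stood at 85.6 and 74.3 CPM and CD34 at 687 and 621 CPM, against 37.5 and 37.7 CPM and 419 and 426 CPM in untreated KG-1a at 24 h. With 8AA at 8 h, where 6 of the 7 rose, CD3E stood at 34.65 and 29.25 CPM against 25.5 and 24.9 CPM untreated, and CD34 at 521 and 491.5 CPM against 382 and 359.5 CPM. The part of these markers in the members' changes at either time was not tested. The 8CA and 8AA comparisons of a line and time share their untreated libraries.

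**Figure D2:**
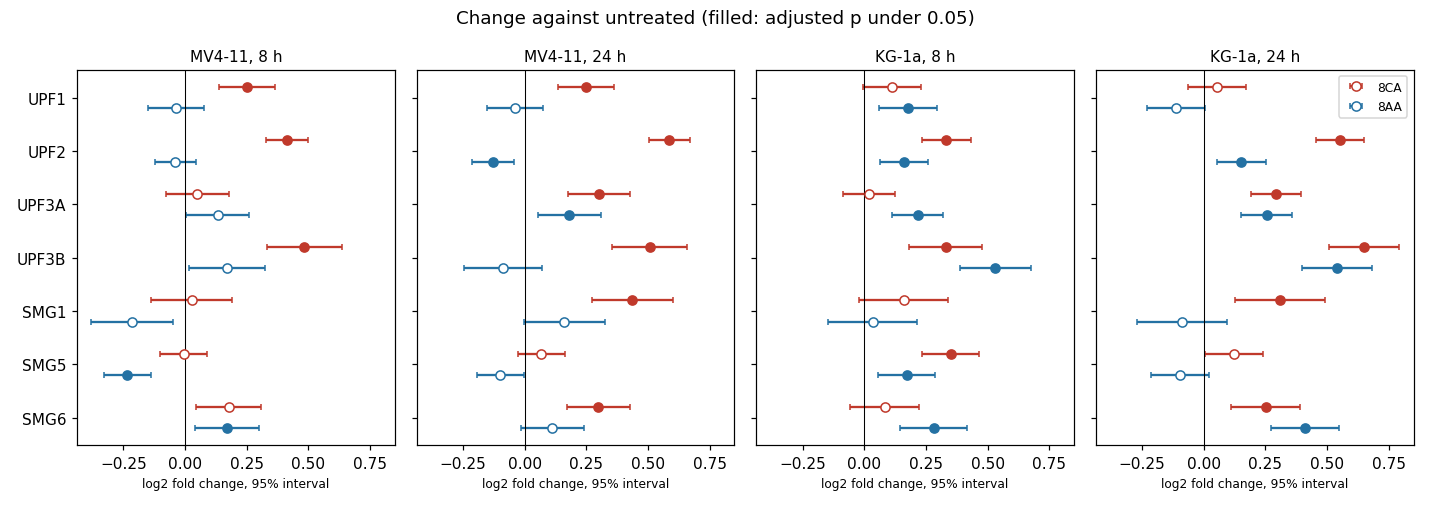
log2 fold change against untreated of the 7 genes, by line and time, with 95% intervals from edgeR. Red points are 8CA and blue points 8AA, and filled points passed an adjusted p of 0.05. UPF2 and UPF3B are filled and right of 0 with 8CA in all 4 panels.

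UPF1, the helicase, rose in MV4-11 with 8CA at both times, and in KG-1a at 8 h with 8AA. In MV4-11 at 8 h it stood at 300.0 and 316 CPM untreated, 352 and 380.4 CPM with 8CA, and 291 and 309 CPM with 8AA. At 24 h the values were 309.8 and 297.5 CPM, 346 and 376 CPM, and 290.1 and 301.5 CPM. The 8CA libraries lay above the untreated ones at both times, and the 8AA libraries overlapped them. The log2 fold change with 8CA was 0.25 (SE 0.054, edgeR adjusted p = 0.00845) at 8 h and 0.25 (SE 0.053, adjusted p = 0.00144) at 24 h. The call at 8 h was lost without untreated replicate A or 8CA replicate B (adjusted p up to 0.095), while that at 24 h held under each alternative run. In KG-1a at 8 h UPF1 stood at 324 and 297 CPM untreated, 336 and 335 CPM with 8CA, and 353 and 349.9 CPM with 8AA. At 24 h it stood at 319 and 326 CPM, 346 and 324 CPM, and 314 and 282 CPM. Only the 8AA change at 8 h passed the test in KG-1a (log2 fold change 0.18, SE 0.055, edgeR adjusted p = 0.0203), and it did not without untreated replicate B, 8AA replicate A or 8AA replicate B (adjusted p up to 0.206).

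UPF2, the bridge between UPF1 and the UPF3 proteins, rose with 8CA in both lines and at both times, by 25.9% to 50.1%. In MV4-11 at 8 h it stood at 195 and 199 CPM untreated, 262 and 262 CPM with 8CA, and 193 and 190.1 CPM with 8AA. At 24 h it stood at 194 and 192 CPM, 291 and 287 CPM, and 175 and 178 CPM. Every 8CA library exceeded every untreated library, and the 8AA libraries lay below the untreated ones. In KG-1a UPF2 was at 114 and 119.9 CPM untreated, 147 and 148 CPM with 8CA, and 132 and 129 CPM with 8AA at 8 h, and at 123 and 126 CPM, 184 and 179 CPM, and 140.1 and 136 CPM at 24 h. There both drugs lay above untreated, with 8CA highest. The log2 fold changes with 8CA were 0.41 (SE 0.039) and 0.59 (SE 0.039) in MV4-11 and 0.33 (SE 0.046) and 0.55 (SE 0.046) in KG-1a, at 8 h and 24 h. The largest of their 4 edgeR adjusted p values was 0.00146, and all 4 calls held under each alternative run. With 8AA UPF2 fell by 0.13 on the log2 scale in MV4-11 at 24 h (SE 0.040, edgeR adjusted p = 0.0248), was 0.04 lower without a call at 8 h, and rose by 0.16 (SE 0.046) and 0.15 (SE 0.046) in KG-1a. The fall in MV4-11 was lost under 7 of 13 alternatives, among them library-size scaling and the fits without untreated replicate A, untreated replicate B or 8AA replicate A (adjusted p up to 0.132). The KG-1a calls were lost without untreated replicate A or 8AA replicate A at 8 h, and without untreated replicate A or in a fit of only the 4 libraries at 24 h (adjusted p up to 0.127).

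UPF3B, the X-linked UPF3 paralog, rose with 8CA in all 4 comparisons and with 8AA in KG-1a. In MV4-11 at 8 h it stood at 30.0 and 26.9 CPM untreated, 41.9 and 37.7 CPM with 8CA, and 32.1 and 31.9 CPM with 8AA. At 24 h it stood at 27.2 and 28.7 CPM, 39.6 and 39.9 CPM, and 26.6 and 26.0 CPM. The 8AA libraries were just above the untreated ones at 8 h and just below them at 24 h, and neither difference passed the test. In KG-1a at 8 h UPF3B stood at 23.0 and 24.6 CPM untreated, 30.7 and 29.2 CPM with 8CA, and 35.5 and 33.4 CPM with 8AA. At 24 h it stood at 26.1 and 25.3 CPM, 39.99 and 40.7 CPM, and 36.9 and 37.8 CPM. Both drugs lay above untreated at both times in this line. The log2 fold changes with 8CA were 0.48 (SE 0.072) and 0.51 (SE 0.071) in MV4-11 and 0.33 (SE 0.069) and 0.65 (SE 0.067) in KG-1a, where the last is the largest change of any member against untreated. With 8AA they were 0.53 (SE 0.068) and 0.54 (SE 0.067) in KG-1a. The largest edgeR adjusted p of these 6 was 0.0338, for KG-1a with 8CA at 8 h. That call was lost with DESeq2 and without untreated replicate A or B or 8CA replicate A or B (adjusted p up to 0.334), and the other 5 held under each alternative run.

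UPF3A, the autosomal paralog, rose at 24 h in each line with each drug and at 8 h in KG-1a with 8AA. At 8 h MV4-11 held 53.1 and 52.5 CPM untreated, 56.7 and 52.5 CPM with 8CA, and 60.7 and 55.2 CPM with 8AA. Its levels at 24 h were 49.5 and 50.5 CPM, 62.9 and 60.4 CPM, and 56.4 and 57.0 CPM. The groups separated at 24 h, with 8CA above 8AA and both above untreated. In KG-1a it was at 69.0 and 72.1 CPM untreated, 71.5 and 71.7 CPM with 8CA, and 81.97 and 82.2 CPM with 8AA at 8 h, and at 76.9 and 74.6 CPM, 92.3 and 93.3 CPM, and 89.3 and 91.5 CPM at 24 h. With 8CA at 8 h the libraries lay among the untreated ones. The log2 fold changes at 24 h were 0.30 (SE 0.059) with 8CA and 0.18 (SE 0.060) with 8AA in MV4-11, and 0.29 (SE 0.048) and 0.25 (SE 0.048) in KG-1a, with an edgeR adjusted p of at most 0.0322. The MV4-11 8AA call was lost with DESeq2 and without any one of the 4 libraries, untreated replicate A or B or 8AA replicate A or B (adjusted p up to 0.156). At 8 h the KG-1a change with 8AA was 0.22 (SE 0.049, edgeR adjusted p = 0.00273).

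The balance of the paralogs differed between the lines and moved with 8CA. In untreated libraries the ratio of UPF3A to UPF3B, each in RPKM, was 1.16 to 1.29 in MV4-11 and 1.93 to 1.98 in KG-1a. With 8CA it was 0.894 and 0.918 at 8 h and 1.05 and 0.997 at 24 h in MV4-11, and 1.54 and 1.62 at 8 h and 1.52 and 1.51 at 24 h in KG-1a. With 8AA the lines differed in direction at 24 h: 1.397 and 1.44 in MV4-11, above untreated, and 1.59 and 1.59 in KG-1a, below it. At 8 h the 8AA ratios were 1.25 and 1.14 in MV4-11, overlapping untreated, and 1.52 and 1.62 in KG-1a. The ratio was not tested.

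**Figure D3:**
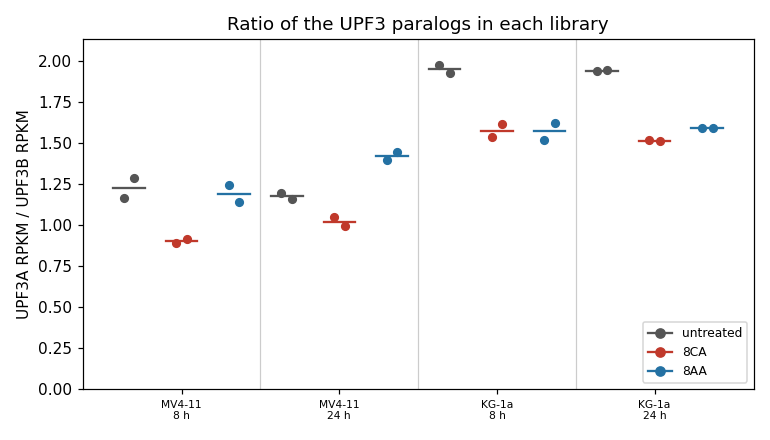
Ratio of UPF3A to UPF3B, each in RPKM, in the 24 libraries by line and time (points are libraries, bars the mean of 2, axis from 0). The 8CA libraries lie below the untreated libraries of their block in all 4 blocks, and the 8AA libraries at 24 h lie above them in MV4-11 and below them in KG-1a.

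SMG1, the kinase, rose with 8CA at 24 h in both lines. The MV4-11 values at 8 h were 239.6 and 290.0 CPM untreated, 280.4 and 259 CPM with 8CA, and 238 and 219 CPM with 8AA. Those at 24 h were 294 and 277 CPM, 403 and 369 CPM, and 334 and 304 CPM. The untreated libraries at 8 h were far apart, with the 8CA libraries between them. In KG-1a it was at 439 and 462 CPM untreated, 487 and 519.9 CPM with 8CA, and 448 and 475 CPM with 8AA at 8 h, and at 457 and 428 CPM, 537 and 560.2 CPM, and 362 and 472 CPM at 24 h. The log2 fold change with 8CA at 24 h was 0.44 (SE 0.077, edgeR adjusted p = 0.000284) in MV4-11, held under each alternative run, and 0.31 (SE 0.085, adjusted p = 0.0073) in KG-1a. In KG-1a it was lost without untreated replicate B or 8CA replicate B (adjusted p up to 0.0816). No change with 8AA passed the test, with -0.21 (adjusted p = 0.0503) in MV4-11 at 8 h, 0.16 at 24 h, 0.03 in KG-1a at 8 h and -0.09 at 24 h. The MV4-11 change at 8 h was past the threshold under 6 of 13 alternatives, among them the fits without untreated replicate A or 8AA replicate A. Without 8AA replicate B, the KG-1a change at 24 h was also called.

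SMG1 has near-identical pseudogene copies, so its reads may have been split. Of the 7 SMG1 pseudogenes listed, 5 are in the table, and SMG1 took 90.5% to 92.5% of the summed counts of SMG1 and these copies in MV4-11 and 94.5% to 96.2% in KG-1a. With 8CA at 24 h, 1 of the 5 rose in MV4-11, where 21.2% of all genes rose, and 3 in KG-1a (23.4%), with a median log2 fold change of 0.42 and 0.53. With 8AA at 24 h, 1 rose in MV4-11 (13.9%) and 3 in KG-1a (25.4%), with a median of 0.37 and 0.40, and SMG1 was not called there. SMG1P5 (0.60), SMG1P1 (0.57), SMG1P2 (0.46) and SMG1P3 (0.33) had the largest mean log2 fold changes over the 4 comparisons at 24 h. Several of these calls rest on single libraries: SMG1P1 with 8CA in MV4-11 was 0.61, and 0.38 without 8CA replicate A, where it was no longer called.

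SMG5, the adaptor of phosphorylated UPF1, fell in MV4-11 and rose in KG-1a with 8AA at 8 h. In MV4-11 at 8 h it stood at 143 and 142 CPM untreated, 142 and 142 CPM with 8CA, and 119.6 and 123 CPM with 8AA. By 24 h the values were 138 and 132 CPM, 140.5 and 143 CPM, and 129.0 and 123 CPM. In KG-1a it was at 195 and 180.0 CPM untreated, 236 and 241 CPM with 8CA, and 215 and 207 CPM with 8AA at 8 h, and at 191 and 205 CPM, 219 and 212 CPM, and 194 and 177 CPM at 24 h. The 8AA libraries at 8 h were below untreated in MV4-11 and above it in KG-1a, without overlap. The log2 fold change with 8AA at 8 h was -0.23 (SE 0.045, edgeR adjusted p = 0.00107) in MV4-11, held under each alternative run, and 0.17 (SE 0.055, adjusted p = 0.0244) in KG-1a. With 8CA at 8 h it was 0.35 (SE 0.055, edgeR adjusted p = 0.00484) in KG-1a and -0.01 (95% interval -0.10 to 0.09) in MV4-11. Both KG-1a calls were lost without untreated replicate B or without either library treated with the drug, replicate A or B (adjusted p up to 0.22 with 8AA and 0.102 with 8CA). At 24 h no change of SMG5 passed the test.

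SMG6, the endonuclease, was above untreated with both drugs in each line, and rose in 5 of 8 comparisons. MV4-11 at 8 h gave 38.6 and 41.1 CPM untreated, 44.6 and 45.5 CPM with 8CA, and 43.4 and 46.1 CPM with 8AA. The 24 h libraries gave 42.6 and 41.6 CPM, 52.3 and 51.3 CPM, and 43.9 and 47.2 CPM. In KG-1a it was at 65.8 and 60.6 CPM untreated, 67.0 and 66.6 CPM with 8CA, and 77.9 and 75.5 CPM with 8AA at 8 h, and at 56.5 and 59.8 CPM, 71.2 and 67.2 CPM, and 81.6 and 72.8 CPM at 24 h. In KG-1a the 8AA libraries were the highest of the 3 groups at both times. The log2 fold change was 0.28 (SE 0.064) at 8 h and 0.41 (SE 0.065) at 24 h with 8AA in KG-1a, 0.25 (SE 0.065) with 8CA at 24 h in KG-1a and 0.30 (SE 0.060) with 8CA at 24 h in MV4-11, with an edgeR adjusted p of at most 0.00509. The MV4-11 call and the KG-1a 8AA call at 24 h held under each alternative run. In KG-1a the 8AA call at 8 h was lost without untreated replicate B (adjusted p 0.0505), and the 8CA call at 24 h without untreated replicate A or 8CA replicate A (up to 0.0863). In MV4-11 with 8AA at 8 h it was 0.17 (SE 0.061, edgeR adjusted p = 0.0492), and 7 of 13 alternatives lost that call, the fits without untreated replicate A, untreated replicate B or 8AA replicate B among them (adjusted p up to 0.273).

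Set directly against each other at the same dose and time, 8AA gave lower levels than 8CA for most of the 7 genes in MV4-11, and for 4 in KG-1a at 24 h. These are 4 comparisons of the 2 analogs, each adjusted over all genes tested. In MV4-11, 4 of the 7 were lower with 8AA at 8 h (6.66% of all genes differed in either direction) and 6 at 24 h (21.2%), and none was higher by this test. In KG-1a, 2 were lower and 3 higher with 8AA at 8 h (30.4% of all genes differed), and 4 were lower at 24 h (42.0%). UPF2 was lower with 8AA in all 4 (at 8 h in KG-1a the call was lost without 8CA replicate A or B or 8AA replicate B, adjusted p up to 0.0893), by a log2 fold change of -0.45 (SE 0.039) and -0.71 (SE 0.039) in MV4-11 and -0.17 (SE 0.046) and -0.40 (SE 0.045) in KG-1a. UPF3B was lower with 8AA in MV4-11 (-0.31, SE 0.071, and -0.59, SE 0.071), higher in KG-1a at 8 h (0.20, SE 0.065), and at -0.11 in KG-1a at 24 h (95% interval -0.24 to 0.02), without a call. The UPF3B calls at 8 h were lost in MV4-11 with only the 4 libraries and without 8CA replicate A or 8AA replicate A or B (adjusted p up to 0.168), and in KG-1a with no filter, with DESeq2 and without 8CA replicate A or B or 8AA replicate A (up to 0.216). SMG5 was lower with 8AA in all 4 comparisons, by -0.23 and -0.17 in MV4-11 and -0.18 and -0.22 in KG-1a, but each of these calls was lost under at least 1 alternative. In KG-1a it was lost at 8 h without any one of 8CA replicate A or B or 8AA replicate A or B (adjusted p up to 0.153) and at 24 h without 8CA replicate A (0.0516). In MV4-11 it was lost at 8 h with only the 4 libraries and without 8AA replicate A (up to 0.0729), and at 24 h without 8CA replicate A or B or 8AA replicate B (up to 0.113). UPF1 was lower in MV4-11 by -0.29 at 8 h and -0.29 at 24 h and in KG-1a at 24 h by -0.17. The MV4-11 call of UPF1 at 8 h was lost without 8CA replicate B (adjusted p 0.0576). The KG-1a call was lost under 5 of 13 alternatives, library size only (-0.10), upper quartile (-0.13), only the 4 libraries, and without 8CA replicate A (-0.12) or 8AA replicate B (-0.09), with an adjusted p up to 0.216. SMG1 was lower at 24 h by -0.28 in MV4-11 and -0.40 in KG-1a. The MV4-11 call of SMG1 was lost without 8CA replicate A or 8AA replicate B (adjusted p up to 0.166), and the KG-1a value was -0.22 without 8AA replicate A and -0.60 without 8AA replicate B, called in both.

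UPF3A passed the test of 8AA against 8CA only in KG-1a at 8 h. SMG6 passed it with opposite signs in KG-1a at 8 h and in MV4-11 at 24 h. Whether the difference between the drugs varied with line or time was not tested. UPF3A was higher with 8AA than with 8CA in KG-1a at 8 h (0.20, SE 0.048), and the 95% interval of the difference was -0.04 to 0.21 in MV4-11 at 8 h, -0.25 to 0.00 at 24 h and -0.14 to 0.06 in KG-1a at 24 h. SMG6 was higher with 8AA in KG-1a at 8 h (0.20, SE 0.063), lower in MV4-11 at 24 h (-0.19, SE 0.059), and had an interval of -0.14 to 0.12 in MV4-11 at 8 h and 0.03 to 0.29 in KG-1a at 24 h, the last with an edgeR adjusted p of 0.0535. The SMG6 call in KG-1a at 8 h was lost with DESeq2 and without any one of 8CA replicate A or B or 8AA replicate A or B (adjusted p up to 0.153), and that in MV4-11 at 24 h with DESeq2 and without 8CA replicate A or B or 8AA replicate A (up to 0.2). Leaving out libraries lowered several of these counts. The KG-1a count at 8 h fell from 5 to 1 without 8CA replicate A or B and to 2 without 8AA replicate A or B. The MV4-11 count was 2 at 8 h without 8AA replicate A and 3 at 24 h without 8CA replicate A, and the KG-1a count at 24 h was 2 without 8CA replicate A.

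**Figure D4:**
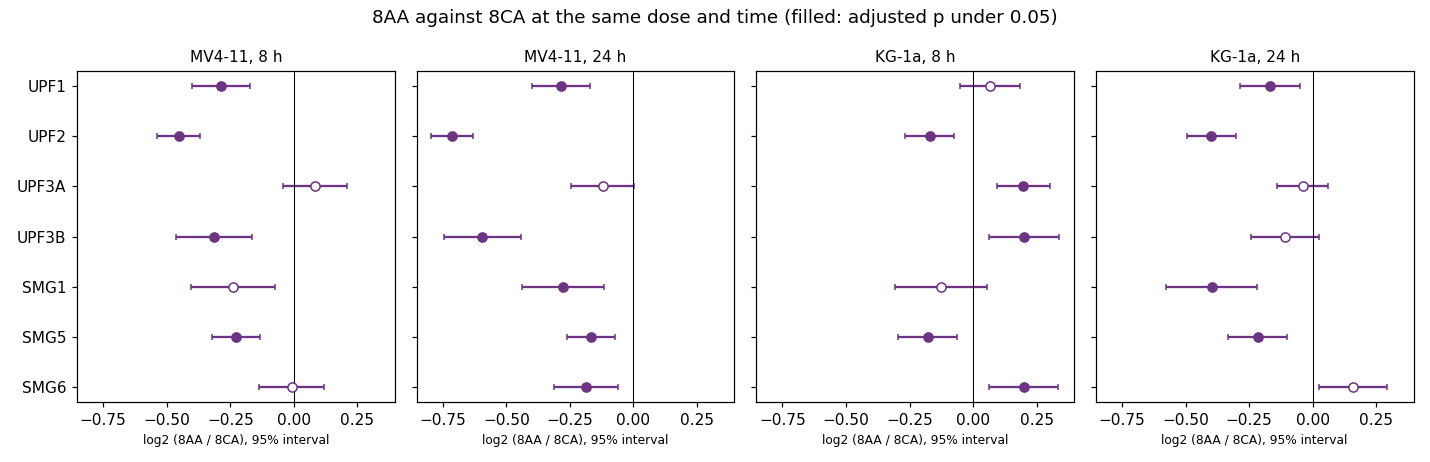
log2 ratio of 8AA to 8CA for the 7 genes at the same dose and time, with 95% intervals from edgeR. Filled points passed an adjusted p of 0.05. UPF2 and SMG5 are filled and left of 0 in all 4 panels, and UPF3A, UPF3B and SMG6 are filled and right of 0 in KG-1a at 8 h.

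Between the lines, 1 of the 7 members differed in its change with 8CA at 8 h and 0 at 24 h, and with 8AA 2 and 3. The share of all genes called was also higher with 8AA at each time, so these counts do not compare the drugs. The difference between lines (change in MV4-11 minus change in KG-1a, fit of all 24 libraries) was called for 1 of the 7 genes with 8CA at 8 h, SMG5 at -0.34 (SE 0.071; 1.15% of all genes were called). With 8CA at 24 h edgeR called 0 of the 7, DESeq2 called 0, and 1 had an unadjusted p under 0.05 (11.2% of genes were called). UPF2 differed there by 0.06 (95% interval -0.06 to 0.18) and UPF3B by -0.12 (-0.32 to 0.08). With 8AA, UPF3B (-0.32, SE 0.098) and SMG5 (-0.36, SE 0.072) were called at 8 h (11.1% of genes), and UPF2 (-0.26, SE 0.058), UPF3B (-0.61, SE 0.098) and SMG6 (-0.28, SE 0.090) at 24 h (22.3%). Each of these 5 differences is negative, so that the signed change was higher in KG-1a. The 8CA call of SMG5 was lost without MV4-11 untreated replicate A, MV4-11 8CA replicate A, KG-1a untreated replicate B or KG-1a 8CA replicate B. The 8AA count at 8 h was 1 without MV4-11 untreated replicate A, KG-1a untreated replicate A, KG-1a 8AA replicate A or either MV4-11 8AA library, replicate A or B.

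With 8CA the change grew between 8 h and 24 h for some members. The difference (change at 24 h minus change at 8 h) was called in MV4-11 for UPF2 (0.17, SE 0.055) and SMG1 (0.41, SE 0.109), with 16.3% of genes called, and in KG-1a for UPF2 (0.22, SE 0.065), UPF3A (0.27, SE 0.069), UPF3B (0.32, SE 0.097) and SMG5 (-0.23, SE 0.078), with 23.9%. Of these called differences, only that of SMG5 in KG-1a was negative. Without a call, SMG5 differed by 0.07 in MV4-11 and UPF1 by -0.06 in KG-1a. With 8AA, edgeR called 0 of the 7 in MV4-11 (4.63% of genes), where 3 had an unadjusted p under 0.05 and DESeq2 called 1. In KG-1a, UPF1 (-0.29, SE 0.078) and SMG5 (-0.27, SE 0.078) were called with 8AA (18.3% of genes). These counts were sensitive to single libraries. The MV4-11 8CA count was 0 or 1 without any one of 7 of the 8 libraries, the exception being 8CA replicate A at 8 h, and the KG-1a 8CA count was 0, 1 or 2 without any one of 7 of the 8, the exception being untreated replicate A at 8 h. The KG-1a 8AA count was 0 without untreated replicate B at 8 h, 8AA replicate A at 8 h or untreated replicate B at 24 h.

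The wider pathway was read from lists chosen with earlier results of these data known. Of 11 further NMD cofactors, 10 could be tested, and at 24 h 4 fell and 3 rose with 8CA in MV4-11 (22.7% of all genes fell and 21.2% rose), 4 fell and 0 rose with 8AA in MV4-11 (15.3% and 13.9%), 4 fell and 2 rose with 8CA in KG-1a (24.0% and 23.4%), and 5 fell and 2 rose with 8AA in KG-1a (26.6% and 25.4%). At 8 h the counts were 3 lower and 1 higher, 5 and 0, 0 and 0, and 5 and 1, in the same order, where 5.77% of all genes fell and 4.58% rose, 15.6% and 13.6%, 0.181% and 0.700%, and 18.0% and 16.7%. For the 0 in KG-1a with 8CA, 3 had an unadjusted p under 0.05 and DESeq2 called 0. The medians at 24 h were -0.06, -0.09, -0.08 and -0.23, beside 0.00, 0.00, 0.01 and 0.01 over all genes. RUVBL1 and RUVBL2, ATPases that assemble large complexes, and ETF1 and GSPT1, the translation release factors, fell in all 4 comparisons at 24 h. The mean log2 fold change over those 4 was -0.51 for RUVBL1, -0.39 for ETF1, -0.38 for GSPT1 and -0.37 for RUVBL2. The MV4-11 8AA calls of RUVBL1 and RUVBL2 were lost without 8AA replicate A (adjusted p 0.0563 and 0.0721). SMG9, a partner of SMG1, rose with 8CA at 24 h by 0.47 in MV4-11 and 0.56 in KG-1a. It was named after its values were seen.

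Of 6 exon junction complex genes, 2 fell and 1 rose with 8CA and 5 fell with 8AA in MV4-11 at 24 h, and 4 fell and 1 rose with 8CA and 4 fell with 8AA in KG-1a. The share of all genes that fell was 22.7%, 15.3%, 24.0% and 26.6% in that order, and the share that rose 21.2%, 13.9%, 23.4% and 25.4%, so that 2 lower and 1 higher of 6 with 8CA in MV4-11 is near the background. At 8 h, 1 fell and 1 rose, 4 fell, 0 passed and 2 fell, in the same order. The share of all genes that fell there was 5.77%, 15.6%, 0.181% and 18.0%, and the share that rose 4.58%, 13.6%, 0.700% and 16.7%. For the 0 in KG-1a with 8CA, which is near those shares, 1 had an unadjusted p under 0.05 and DESeq2 called 0. The core helicase EIF4A3 fell in all 4 comparisons at 24 h (mean log2 fold change -0.31), MAGOHB in 3 (-0.34) and RNPS1 in 3 (-0.22). With 8AA, EIF4A3 in KG-1a was -0.26 and -0.16 without 8AA replicate B, and the MAGOHB call in MV4-11 was lost without untreated replicate B or 8AA replicate B. CASC3 rose with 8CA in both lines, by 0.33 and 0.43 at 24 h. Of 10 genes of general mRNA decay, 0 fell and 2 rose with 8CA in MV4-11 at 24 h (22.7% and 21.2% of all genes). With 8AA there 0 fell and 1 rose (15.3% and 13.9%). In KG-1a at 24 h 2 fell and 2 rose with 8CA (24.0% and 23.4%), and 2 fell and 4 rose with 8AA (26.6% and 25.4%). At 8 h the counts in that order were 0 lower and 2 higher, 0 and 2, 0 and 0, and 2 and 3. The shares of all genes at 8 h are those given above. The medians at 24 h were 0.01, -0.02, 0.03 and 0.09. XRN1, the cytoplasmic exonuclease that degrades the cut fragment, rose at 24 h with 8CA by 0.52 in MV4-11 and 0.64 in KG-1a and with 8AA by 0.39 in KG-1a. The last value rests on 106 and 146 CPM, against 97.3 and 94.8 CPM untreated, and was 0.60 without 8AA replicate A and 0.14 without 8AA replicate B, still called. DCP1B (mean 0.21), DCP1A (0.11) and CNOT7 (-0.12) passed the test in 2, 1 and 2 of the 4 comparisons, the DCP1B call with 8AA in KG-1a being lost without untreated replicate A or B or 8AA replicate A, and the CNOT7 call with 8CA in KG-1a without any one of its 4 libraries, untreated replicate A or B or 8CA replicate A or B.

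Among 15 transcripts known as targets of nonsense-mediated decay, 7 rose and 1 fell with 8CA at 24 h in MV4-11, and 8 rose and 1 fell in KG-1a. With 8AA at 24 h, 2 rose and 5 fell in MV4-11, and 4 rose and 5 fell in KG-1a. Of all genes, 21.2% rose and 22.7% fell with 8CA in MV4-11, 23.4% and 24.0% with 8CA in KG-1a, 13.9% and 15.3% with 8AA in MV4-11 and 25.4% and 26.6% with 8AA in KG-1a, so the last of these list counts is near the background. At 8 h, 8CA gave 0 higher and 1 lower in MV4-11 and 2 higher and 0 lower in KG-1a. With 8AA, 1 was higher and 4 lower in MV4-11 at 8 h, and 2 higher and 5 lower in KG-1a. Of all genes at 8 h, 4.58% rose and 5.77% fell with 8CA in MV4-11, near the list counts, and 0.700% and 0.181% in KG-1a. With 8AA these shares were 13.6% and 15.6% in MV4-11 and 16.7% and 18.0% in KG-1a. The medians at 24 h with 8CA were 0.20 in MV4-11 and 0.31 in KG-1a, and with 8AA -0.02 and -0.03. DDIT3 (log2 fold change 0.89 in MV4-11 and 2.41 in KG-1a with 8CA), ATF4 (0.59 and 1.12) and ATF3 (0.66 and 2.18) are stress-response transcription factors that also change through transcription and translation. GAS5 (0.53 and 0.84), ZFAS1 (0.62 and 0.83) and EPB41L4A-AS1 (0.51 and 1.00) are noncoding transcripts. ZFAS1 with 8AA in KG-1a was 0.44, and 0.27 without 8AA replicate A. With 8AA at 24 h ATF4 fell in both lines, by 0.33 and 0.72 on the log2 scale, and ATF3 fell by 0.94 and 0.87. ATF4 and ATF3 were named after their values were seen and do not stand for the list. The targets picked by rule were chosen by the absolute value of their mean log2 fold change over the 4 comparisons at 24 h. That mean was 1.03 for DDIT3, 0.57 for EPB41L4A-AS1, 0.56 for ZFAS1 and 0.43 for GAS5. They were called in 3, 3, 4 and 3 of the 4 comparisons. Since this mean selected them, its sign and size do not stand for the list either.

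**Figure D5:**
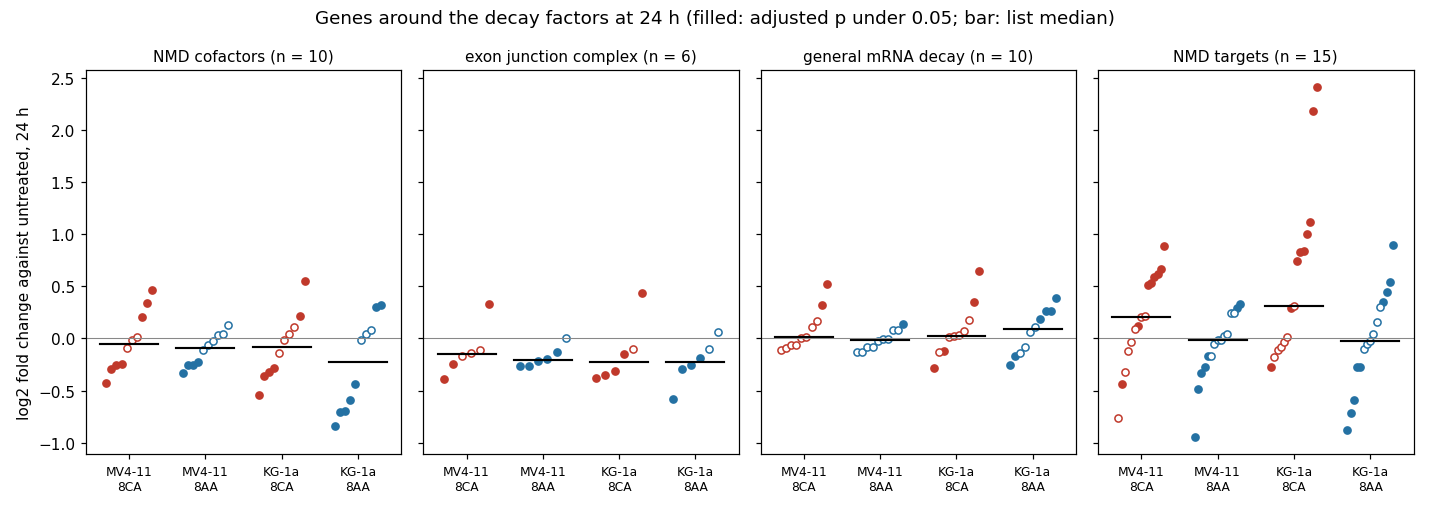
log2 fold change against untreated at 24 h of the tested genes of 4 lists, by line and drug (red 8CA, blue 8AA). Filled points passed an adjusted p of 0.05 in edgeR and black bars are list medians. The list of NMD targets has its highest points, up to 2.41, with 8CA in KG-1a, and the exon junction complex has a median under 0 in all 4 columns.

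The members were also compared by their pattern over the 24 libraries, with the mean of each line subtracted from log2 CPM. These correlations are a description, since the libraries share lines, treatments and depth. Among the 21 pairs of members, UPF2 and UPF3B were most alike (Pearson r = 0.84, 24 libraries) and UPF3A and SMG5 least (r = -0.20). Among 9088 genes whose mean log2 CPM was 3 or more, the one most like UPF2 was SMG9 (r = 0.94), followed by RSF1 (0.90) and PHF14 (0.89). UPF3B was most like CIR1 (0.93), YTHDC1 (0.93) and R3HCC1L (0.90), and UPF3A most like KLHL24 (0.92), HCG11 (0.91) and TNRC6B (0.91). SMG1 was nearest to REV3L (0.94), SHPRH (0.93) and SMARCAD1 (0.92), and SMG6 to ZNF616 (0.92), ZSCAN2 (0.91) and NCOA4 (0.89). UPF1 (TEX261, 0.82; BRF2, 0.78; PDRG1, 0.77) and SMG5 (GOSR2, 0.87; RIOK2, 0.82; DDX20, 0.80) had the lowest likeness to their nearest genes.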

How the data were processed

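Per the labels, total RNA of MV4-11 and KG-1a cells was extracted with the QIAGEN RNeasy Micro Kit. The authors deposited raw counts, whole numbers of reads per gene with no normalization, for 23354 genes in 24 libraries, with exon length and position. The submitters' processing notes name Trimmomatic, STAR 2.6.0, HTSeq 0.11.1, edgeR and the builds hg19 and hg38, without saying what each did. Of 21956 genes matched by symbol, 52 share their start with GRCh38. Whether counting used strand: not given in the sources used here. Reads of antisense partners may therefore be included.

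From the counts, genes were filtered with filterByExpr (minimum count 10), scaling factors taken from TMM, and edgeR 4.0.16 (R 4.3.3) used for quasi-likelihood tests on the 12 libraries of each line (12800 genes in MV4-11, 12711 in KG-1a) or, for contrasts between lines, on all 24 (14055), with 1 coefficient per group. P-values were adjusted by Benjamini-Hochberg over all genes tested, and called means adjusted p under 0.05. CPM are scaled within a line, RPKM over all 24 libraries. The labels give replicate letters but not separate cultures, so p-values measure the spread between these libraries, which may be technical. The total count per library was 18633963 to 24520078, and precision is limited by 2 libraries per group. The scripts were tested on simulated data.

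The members and lists were chosen with earlier results of these data known. The named genes were the 7 members, the 3 genes most correlated with each member, and up to 4 genes per list. The list genes had a mean log2 CPM of at least 1 in each line and were called at least once at 24 h. They were those with the largest absolute value of the mean log2 fold change over the 4 comparisons at 24 h. Opposite changes cancel in that mean. Alternatives were other scalings, filters and sets of libraries, the replicate letter as a block, the Wald test of DESeq2 1.42.0, and leaving out each library in turn, which for named list genes was chosen after seeing the data.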

Additional observations from a re-analysis of the deposited data

Results flagged for a closer look

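The change against untreated differed between the lines (MV4-11 minus KG-1a, log2 scale, edgeR interaction test) for SMG5 with 8CA at 8 h by -0.34, for UPF3B and SMG5 with 8AA at 8 h by -0.32 and -0.36, and for UPF2, UPF3B and SMG6 with 8AA at 24 h by -0.26, -0.61 and -0.28. The change differed between the times (24 h minus 8 h) with 8CA in MV4-11 for UPF2 by 0.17 and SMG1 by 0.41, and with 8CA in KG-1a for UPF2 by 0.22, UPF3A by 0.27, UPF3B by 0.32 and SMG5 by -0.23. With 8AA in KG-1a it differed between the times for UPF1 by -0.29 and SMG5 by -0.27. Each was found by a test of the difference itself.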

How the results depend on the processing

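Of 84 member values (7 genes in 12 comparisons), 50 were called, 25 of them under every alternative run. A called direction was reversed in 0 of 1092 alternative values. Of the 34 values without a call, 15 were called under at least 1 alternative. SMG6 with 8AA against 8CA in KG-1a at 24 h was called by library size only and by upper quartile. It was also called with no filter, with at least 10 counts in every library, with the replicate block and with all 24 libraries. UPF3A and UPF3B with 8AA against untreated in MV4-11 at 8 h were called by library size only, by upper quartile and with all 24 libraries. The count of members called changed by over 1.5 times in 17 of 200 values from alternatives other than leaving out a library, and the causes were not tested. For MV4-11 with 8AA at 8 h (2 called) it was 4 by library size only, 4 by upper quartile, 4 in the fit of all 24 libraries and 1 with only the 4 libraries compared. For MV4-11 with 8AA at 24 h (2) it was 1 by upper quartile, 1 with all 24 libraries and 1 with DESeq2. For the time difference in KG-1a with 8AA (2) it was 1 by library size only and 0 by upper quartile, and for that in MV4-11 with 8AA (0) it was 1 with no filter and 1 with DESeq2. The line difference with 8AA at 8 h (2) became 5 with no filter. 8AA against 8CA in MV4-11 at 8 h (4) gave 2 with only the 4 libraries, and in KG-1a at 8 h (5) gave 3 with DESeq2. DESeq2 also gave 1 for the time difference with 8CA in MV4-11 (2) and 2 in KG-1a (4).

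Of 520 counts over the gene lists under these alternatives and leaving out single libraries, 94 changed by over 1.5 times. Of 67 called values of named list genes at 24 h, 11 lost the call and 7 moved by over 1.5 times without at least 1 library, a check chosen after seeing the data.

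Leaving out 1 library moved 44 of 128 counts by that much. The counts ranged from 1 to 3 for 8AA in MV4-11 at 8 h, 0 to 1 at 24 h, 1 to 2 for 8CA in KG-1a at 8 h and 3 to 5 for 8AA there. For 8AA against 8CA they ranged from 2 to 3 at 8 h and 3 to 5 at 24 h in MV4-11, and 1 to 2 and 2 to 4 in KG-1a. Line differences at 8 h ranged from 0 to 1 with 8CA and 1 to 2 with 8AA. Time differences ranged from 0 to 2 with 8CA and 0 to 1 with 8AA in MV4-11, and 0 to 4 and 0 to 3 in KG-1a. A lone sample left in a group is assumed to vary like the other groups.

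The A minus B differences of 2 groups of a line correlated with a median of 0.046 in MV4-11 (2 of 15 over 0.1) and 0.0139 in KG-1a (1 of 15). Over all genes, the replicate block raised the calls in MV4-11 from 1325 to 1976 with 8CA at 8 h. Between the untreated times they rose from 709 to 1321 there. In the line difference with 8CA at 24 h they fell from 1574 to 1497. Whether the letters pair the samples cannot be told from these values. With the replicate block, the count of members called for the time difference with 8AA in MV4-11 went from 0 to 1, and the other 23 member counts stayed within 1.5 times. Library size scaling shifted the median of all genes by -0.11 in the untreated line comparison at 24 h. Scaling also moved the percentage of all calls that were lower. By library size only it went from 51.1 to 35.5 for KG-1a with 8AA at 24 h, 51.9 to 41.8 at 8 h, 53.5 to 38.8 for MV4-11 with 8AA at 8 h, 52.4 to 36.2 at 24 h, 55.8 to 38.3 for 8CA there at 8 h and 51.8 to 41.1 at 24 h. For 8AA against 8CA it went from 51.6 to 36.4 in KG-1a at 24 h by library size only and from 55.6 to 41.0 in MV4-11 at 8 h by upper quartile. Line differences with 8AA went from 32.5 to 44.1 at 8 h and 38.2 to 54.0 at 24 h by library size only.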
